A study of Mus musculus with 36 samples.

Results

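Females and males that had lived together were compared in the main olfactory epithelium (MOE), with 3 libraries of sex-combined females (CF) and 3 of sex-combined males (CM), which are 6 of the 36 libraries of the series. The members were chosen by their labels. All mice were C57BL/6, were weaned at 3 weeks, and were 6 months old at dissection. CF and CM mice shared cages with the other sex after weaning. The sex-separated females (SF) and males (SM), with 3 MOE libraries each, lived only with their own sex and are used here beside the CF and CM values. Pups born in the mixed cages were removed soon after birth, so that being female and having bred cannot be told apart in this comparison. Each library was made from RNA pooled from several mice. The sources differ on how many mice went into a pool, and p-values measure the spread between pools.

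The MOE lines the back of the nasal cavity and detects airborne odorants. Its mature olfactory sensory neurons (OSNs) each express 1 odorant receptor gene, signal through the cyclic nucleotide-gated channel subunit Cnga2, and contain the olfactory marker protein Omp. Basal cells replace these neurons throughout life, sustentacular cells support them and hold enzymes of xenobiotic metabolism, and glands below the epithelium secrete lipocalins, mucins and other proteins into the mucus. A dissected MOE also carries nasal bone, cartilage, vessels and blood. In bulk tissue, fewer cells of a type and less RNA per cell cannot be told apart.

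Expression was deposited as FPKM, a fragment count divided by transcript length and library size, which was summed by gene symbol. Of 24634 genes, 13757 reached 0.5 FPKM on average in the 12 MOE libraries and were tested, 13323 of them on autosomes. Differences are given as CF minus CM in log2(FPKM + 0.5), a scale that shrinks differences of weakly expressed genes. The fragments behind the FPKM values, estimated from their confidence limits, came to 3988796 to 5524971 in 5 of the 6 libraries and to 2897069 in MOE-CM3. Between pairs of the 6 libraries, Pearson's r across autosomal genes was 0.945 to 0.973, and genes are not independent replicates. The sex labels matched the libraries. Xist, the RNA that silences an X chromosome, had an FPKM of 14.4, 14.4 and 15.2 in the CF libraries and at most 0.0127 in the CM libraries, and the Y-linked helicase gene Ddx3y had 13.3, 13 and 6.56 in the CM libraries and at most 0.0148 in the CF libraries. Omp was at 905 to 1130 FPKM in the CF libraries and at 638 to 1053 in the CM libraries, and Cnga2 averaged 209 FPKM in both groups.

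MOE-CM3 stood apart from the other libraries. Its autosomal genes had a median log2 ratio to the median MOE library of -0.548, whereas the other 11 libraries lay between -0.151 and 0.119. With all 6 libraries, the median difference over autosomal genes was therefore 0.10, and 17.5% of genes were lower in CF. Without MOE-CM3 the median was -0.096 and 72.3% were lower. After dividing each library by its median-of-ratios size factor (0.658 for MOE-CM3, 0.953 to 1.08 for the other 5), the median was -0.005 with 52.1% lower. Values are therefore given as deposited and after this scaling, and a difference as deposited is read against the shift of 0.10.

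**Figure D1:**
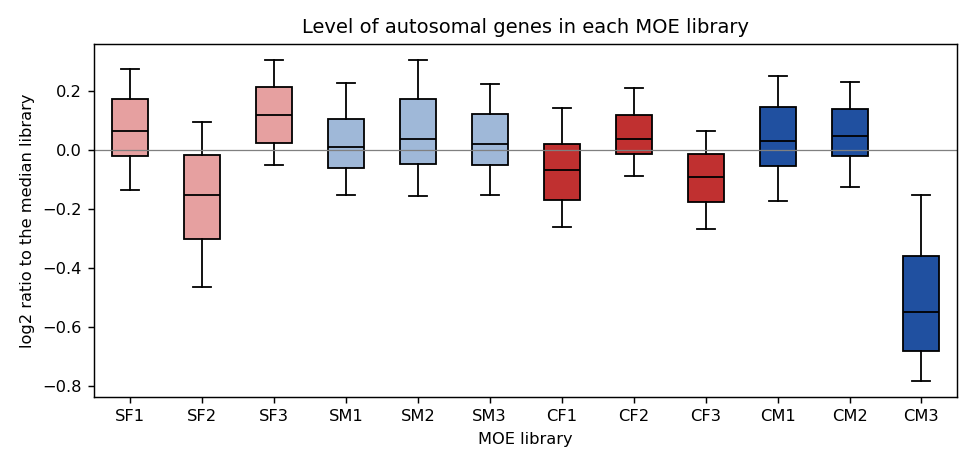
Level of the 13323 tested autosomal genes in each of the 12 MOE libraries, as the log2 ratio of (FPKM + 0.5) to the median library for each gene. Boxes show quartiles with the median as a line, and whiskers run from the 10th to the 90th percentile of genes. The median of MOE-CM3 was -0.548, and no other library had a median below -0.151.

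One autosomal gene passed an adjusted p of 0.05 by limma with Benjamini-Hochberg adjustment over all genes, which was 0.00751% of those tested. This was 2310057J18Rik, a gene of chromosome 10 (mm9 28692094 to 28706112) that RefSeq also lists as Leg1, a family of secreted proteins. Its FPKM was 37.5, 54.0 and 51.8 in the CF libraries and 337, 364 and 207 in the CM libraries. Every male pool was above every female pool, and the lowest male value belonged to MOE-CM3. The CF mean was 47.7 ± 8.97 and the CM mean 303 ± 83.8 (SD, n = 3 each), which is 6.34-fold higher in males. The log2 difference was -2.63 (SE 0.275, adjusted p = 7.63e-05 by limma), and it was -2.75 after scaling. At least 612 estimated fragments stood behind the value in each of the 6 libraries.

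The same gene was compared in the sex-separated mice, which share no library with CF and CM. Its FPKM was 35.1, 51.3 and 49.4 in SF and 263, 162 and 244 in SM, and the log2 difference was -2.28 (limma adjusted p = 0.000486). Of the autosomal genes, 0.06% were called in that comparison. The female levels of the 2 housings overlapped, and the male levels overlapped in part. The sex difference was not shown to differ between housings (interaction of -0.35 on the log2 scale, adjusted p = 0.999 by limma). In the vomeronasal organ (VNO), the second sense organ of the series, the gene was high in both sexes. The VNO libraries of CF had 314, 398 and 298 FPKM and those of CM 533, 443 and 780, without overlap, with a log2 difference of -0.77 (SE 0.316) that did not pass the test (limma adjusted p = 1). In the olfactory bulb it was at most 0.0814 FPKM in these 6 libraries.

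All other autosomal genes missed the adjusted threshold. Without MOE-CM3, 4 genes passed it (0.03%), of which 3 (Rbm14, Snord34 and Agbl5) were listed at 0 FPKM in CM1 and CM2 and above 0 in MOE-CM3 and the CF libraries. The interaction of sex and housing was called for 5 genes (0.0375%), 4 of them listed at 0 in at least 3 of the 12 libraries. At an unadjusted p under 0.05, 194 were higher in CF (1.46% of genes) and 29 lower (0.218%). After scaling, the counts were 286 (2.15%) and 240 (1.8%). The values of the CF and CM libraries did not overlap in 508 genes that were higher in CF (3.81%) and 39 that were lower (0.293%), and after scaling in 554 (4.16%) and 505 (3.79%). The split between higher and lower thus depended on the scaling.

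Genes were ranked by p if their CF and CM values did not overlap. They also had to be above 0 in all 12 MOE libraries, with at least 10 estimated fragments in each CF and CM library. B4galnt2, a Golgi glycosyltransferase, came next after 2310057J18Rik among the ranked genes lower in CF. It had an FPKM of 0.614, 1.21 and 0.863 in CF and of 2.06, 2.19 and 1.30 in CM. The groups did not overlap, although CF2 and CM3 lay close together. The log2 difference was -0.75 (SE 0.197, adjusted p = 1 by limma), and -0.85 after scaling with or without MOE-CM3. In SF and SM libraries it was -0.39, with 0.754, 1.03 and 0.866 FPKM in SF and 1.28, 1.16 and 1.49 in SM. In the VNO the gene was more abundant, at 12.9, 12.6 and 10.9 FPKM in CF and at 17.3, 17.5 and 16.2 in CM. All VNO males were above all VNO females there, with a log2 difference of -0.47 (adjusted p = 0.578 by limma). The values were thus lower in females in each of these 3 sets of 6 libraries, and none of the differences passed the adjusted threshold.

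Angptl7, a secreted angiopoietin-like protein, had 0.626, 0.746 and 0.859 FPKM in CF and 1.61, 2.36 and 1.19 in CM. Its log2 difference was -0.81 (SE 0.229, adjusted p = 1 by limma), whereas SF and SM differed by -0.072. The remaining genes of this rank had smaller differences, from -0.47 to -0.31, with unadjusted p-values of 0.021 to 0.0785 by limma. They were Tmem86b, a lysoplasmalogenase, Acer2, a ceramidase of the Golgi, the transcription factor Atf7, the zinc finger gene Zfp879, Camk2n2, an inhibitor of CaMKII, 2810006K23Rik and the odorant receptor Olfr1045. Their mean levels were low, the highest CM value being 3.26 FPKM for Atf7. As deposited, Zfp879, Camk2n2, 2810006K23Rik and Olfr1045 missed even an unadjusted p of 0.05 by limma, and after scaling they were under it.

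Among the genes higher in CF, 2 encode secreted proteins of mucosal surfaces. Fcgbp, a mucin-like protein, had an FPKM of 5.17, 5.66 and 2.48 in CF and of 2.46, 2.29 and 1.30 in CM. CF3 was close to CM1, and the log2 difference was 0.93 (SE 0.257, adjusted p = 1 by limma). In the sex-separated mice it was 0.92, with SF at 5.70, 5.57 and 4.15 and SM at 2.29, 3.10 and 2.08 FPKM (limma adjusted p = 0.594). In the VNO, CF and CM differed by 0.14 on the log2 scale. Scgb3a1, a secretoglobin, had 10.2, 10.4 and 8.80 FPKM in CF and 7.36, 5.10 and 3.6 in CM, with a log2 difference of 0.87 as deposited and 0.76 after scaling. The groups were separate on both scales. In the sex-separated MOE it differed by 0.45. In the VNO it lay on the other side, at -0.51 for CF minus CM and -1.01 for SF minus SM. None of these differences passed the adjusted threshold.

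The other genes of that rank were mostly of intracellular function. Fam178b had the smallest p of the ranked genes higher in CF (log2 difference 0.75, adjusted p = 0.755 by limma). It had 3.11, 2.07 and 1.81 FPKM in CF against 1.34, 1.15 and 0.990 in CM. Oxsm and Rbm14, not ranked because some libraries list them at 0, had smaller p. They differed by 1.83 (adjusted p = 0.0724 by limma) and 2.00 (adjusted p = 0.644 by limma). Ndufab1, the mitochondrial acyl carrier protein, had 6.36, 4.99 and 5.59 FPKM in CF and 3.46, 2.70 and 3.92 in CM. Fmc1, an assembly factor of ATP synthase, had a log2 difference of 0.64. Both were lower in SF than in SM, by 0.64 and 0.77, and after scaling their CF and CM values overlapped. Pex26, which anchors the import machinery of peroxisomes, had 1.82, 1.88 and 1.83 FPKM in CF and 1.26, 1.12 and 0.946 in CM. Qpctl, a glutaminyl cyclase of the Golgi, Vstm2a, a secreted protein, and Scly, selenocysteine lyase, differed by 0.57 to 0.64. The histone gene H2bc9 also belonged to this rank, at 8.85, 11.9 and 9.23 FPKM in CF and 4.56, 5.98 and 4.23 in CM.

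Crisp1, a cysteine-rich secretory protein best known from the epididymis, had a large spread among the CF libraries. Its FPKM was 41.8, 89.1 and 97.3 in CF and 49.8, 34.9 and 25.5 in CM. CF1 lay below CM1, so the groups overlapped. The log2 difference was 1.0 (SE 0.311, adjusted p = 1 by limma). In SF and SM the gene had 69.9, 111 and 94.8 against 21.7, 15.2 and 17.7 FPKM, a log2 difference of 2.29 (limma adjusted p = 0.00199). The interaction had an unadjusted p of 0.00927 and did not pass after adjustment.

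**Figure D2:**
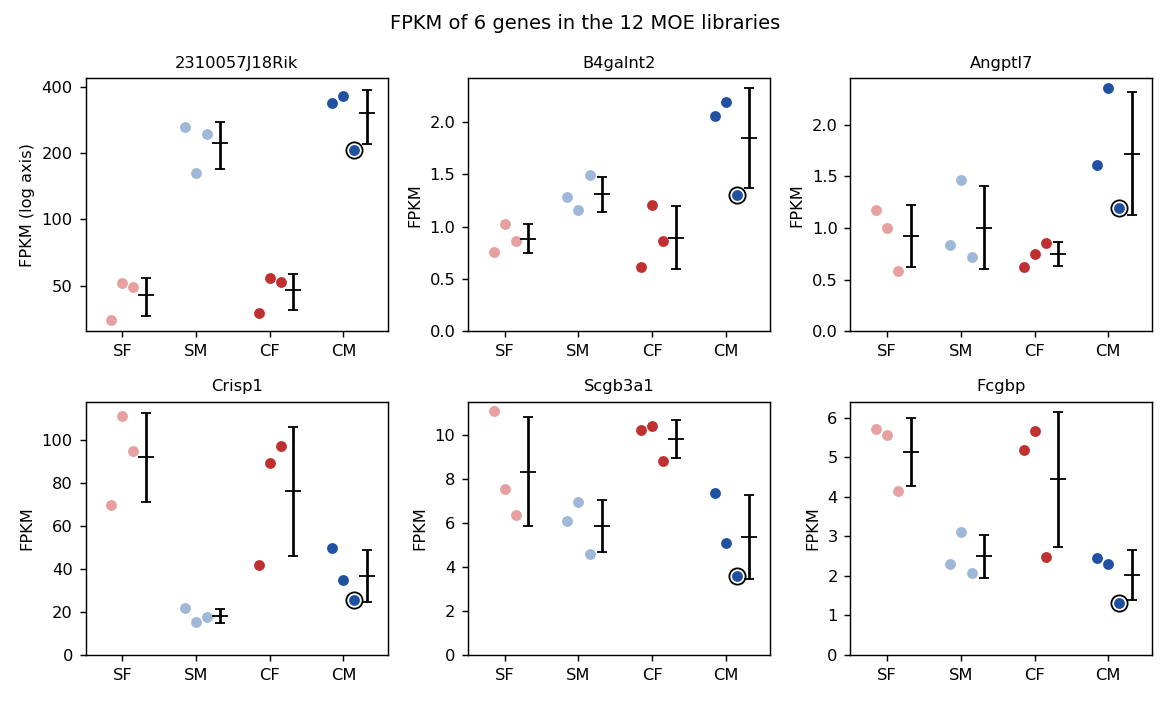
FPKM of 6 genes in the 12 MOE libraries by group, 1 point per library, with the mean and SD (n = 3) to the right of each group and MOE-CM3 ringed. 2310057J18Rik is on a log axis. Its 3 CF values lie at 37.5 to 54.0 and its 3 CM values at 207 to 364, whereas the CF1 point of Crisp1 lies among the CM values.

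The cells of the epithelium itself were next described by lists of marker genes, of which the counts and the median are given beside those of all autosomal genes. No list held a gene that passed the adjusted test other than 2310057J18Rik. The 22 tested autosomal markers of mature OSNs had a median difference of 0.12 as deposited and of 0.00 after scaling, with 11 higher and 11 lower after scaling and 1 at an unadjusted p under 0.05. Their scaled levels lay within 0.04 of the gene-wise average of the 6 libraries in all 6. Immature OSN markers (15 genes) had a scaled median of -0.05, globose basal cell and precursor markers (11) of -0.00, horizontal basal cell markers (13) of -0.10 and sustentacular cell markers (18) of -0.02. Microvillar and tuft cell markers and ciliated cell markers had scaled medians of 0.02 each. Over all of these lists, 2 genes reached an unadjusted p under 0.05 after scaling, 1 higher and 1 lower, beside 2.15% and 1.8% of all autosomal genes. Cyp2a5, a cytochrome P450 of sustentacular cells, had 1779 to 2296 FPKM in CF and 1427 to 2737 in CM.

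Odorant receptors were the largest list, with 630 of 1119 genes tested and mean levels of 0.501 to 48.6 FPKM (median 1.34). As deposited, their median difference was 0.01, below the 0.10 of all genes. At an unadjusted p under 0.05, 15 receptors were higher and 11 lower in CF, beside 1.46% and 0.218% of all autosomal genes. After scaling, the median was -0.06, and 12 were higher (1.9%) and 57 lower (9.05%), beside 2.15% and 1.8% of all autosomal genes. Without MOE-CM3 the scaled shares were 2.38% higher and 8.73% lower, beside 4.17% and 3.57% of all genes. After scaling, 373 receptors were lower and 257 higher in CF. In 59 (9.37%) all CF libraries were below all CM libraries, and in 17 (2.7%) all were above, beside 3.79% and 4.16% of all autosomal genes. Low levels go with a wide spread, and differences of single receptors ran from -0.40 at the 10th percentile to 0.25 at the 90th. No receptor passed the adjusted test.

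The summed FPKM of all receptors, after scaling, was 1478, 1455 and 1430 in CF and 1659, 1612 and 1449 in CM. CM1 and CM2 were above all CF libraries, and CM3 lay among them. The deposited sums were 1427, 1557 and 1362 in CF and 1775, 1741 and 954 in CM. In SF and SM the scaled sums overlapped widely, at 1238 to 1597 and 1335 to 1485. Receptors with all CF values below every CM value after scaling included Olfr1280, with 3.86, 5.58 and 4.82 FPKM in CF and 10.2, 7.22 and 5.23 in CM. Its log2 difference was -0.58 as deposited and -0.70 after scaling. Olfr53, Olfr1056, Olfr1112, Olfr1257 and Olfr212 had scaled differences of -0.60 to -0.31. Olfr912 had 1.65, 2.33 and 1.74 FPKM in CF and 3.23, 2.80 and 1.95 in CM, a log2 difference of -0.38, whereas SF was higher than SM by 1.0, and the interaction did not pass (adjusted p = 0.128 by limma). Olfr391, in the other direction, had 1.85, 1.44 and 1.39 FPKM in CF and 0.935, 0.887 and 1.16 in CM. The 9 tested trace amine-associated receptors, a second family of odour receptors, had a scaled median of -0.13 with none at an unadjusted p under 0.05.

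**Figure D3:**
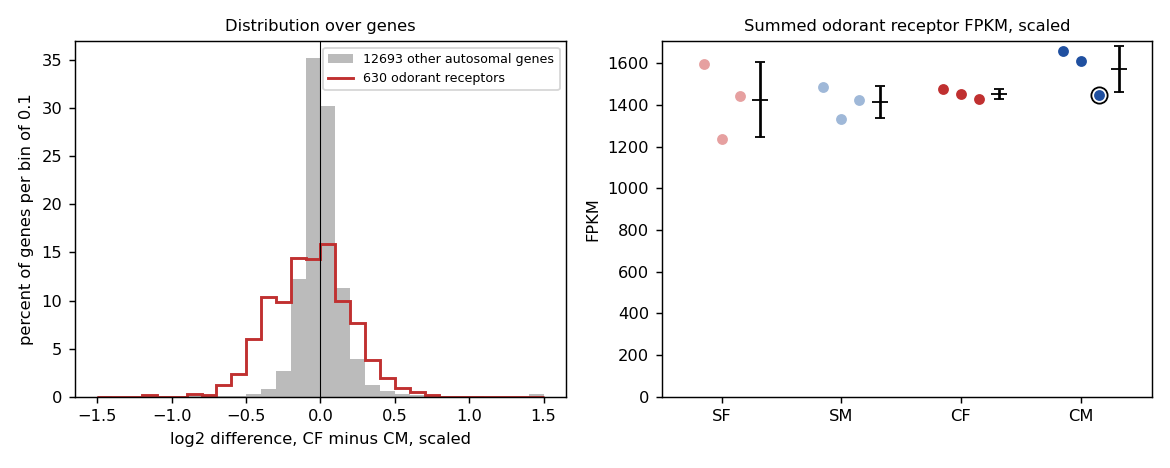
Left, the scaled log2 difference between CF and CM for 630 odorant receptors (red line) and 12693 other autosomal genes (grey), as percent of genes per bin of 0.1. Right, the summed odorant receptor FPKM per MOE library after scaling, with the mean and SD (n = 3) and MOE-CM3 ringed. Of the receptors, 373 lie below 0, and the CF sums of 1430 to 1478 lie below CM1 and CM2 but not below CM3.

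The secretory products of nasal glands were read in 2 lists. Over 29 tested products of all kinds, which include 2310057J18Rik and Crisp1, the median difference was 0.00 as deposited and -0.12 after scaling. Over 18 lipocalins, major urinary proteins and secretoglobins, it was -0.06 and -0.16, and -0.27 when scaled without MOE-CM3. At an unadjusted p under 0.05, this second list held Scgb3a1 on the higher side and Scgb1b27, with 22.2, 61.4 and 64.9 FPKM in CF and 72.2, 129 and 57.5 in CM, on the lower side. For SF minus SM the second list lay on the other side, with a median of 0.24 as deposited and with 15 genes higher and 3 lower. The abundant binding proteins of nasal mucus varied greatly. Mup4 had 749, 1465 and 1199 FPKM in CF and 2530, 3020 and 1545 in CM. The lowest male pool was just above the highest female pool, and the log2 difference of -1.06 had an unadjusted p of 0.109 by limma. Among the sex-separated females alone, Mup4 ranged from 750 to 7547 FPKM. Obp2a, an odorant-binding lipocalin, had 1334, 2183 and 1938 FPKM in CF and 3310, 3474 and 1984 in CM (log2 difference -0.67, unadjusted p = 0.117 by limma). The level of both was lowest in CF1 of the 6 libraries.

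Markers of bone had the highest scaled median of the lists with at least 5 tested genes when all 6 libraries were used. Without MOE-CM3, neutrophil genes (0.55), small nucleolar and Cajal body RNAs (0.43) and erythroid genes (0.37) ranked above them. The 11 tested osteoblast and osteocyte genes were all higher in CF as deposited, with a median of 0.38, and after scaling 9 were higher and 2 lower, with a median of 0.30, or of 0.27 without MOE-CM3. At an unadjusted p under 0.05, 5 were higher (Bglap, Bglap2, Dmp1, Mepe and Sost) and none lower, beside 1.46% and 0.218% of all genes. Scaling left 5 higher and none lower, with and without MOE-CM3, whereas the deposited values without MOE-CM3 gave 3 higher and 1 lower, beside 0.901% and 7.13% of all genes. No gene of the list passed the adjusted test. Bglap, osteocalcin of the bone matrix, had 35.0, 31.8 and 28.4 FPKM in CF and 20.3, 23.3 and 18 in CM. The groups were separate before and after scaling, and the log2 difference was 0.62 (SE 0.212, adjusted p = 1 by limma). Dmp1, a matrix protein of osteocytes, had 2.58, 2.59 and 2.51 FPKM in CF and 1.91, 1.92 and 1.30 in CM. Mepe, another osteocyte matrix protein, had 1.10, 1.32 and 1.74 FPKM in CF and 1.10, 0.924 and 0.776 in CM, so that CF1 and CM1 were level to 3 digits. The gene lower in the deposited values without MOE-CM3 was Omd, osteomodulin of the bone matrix, with 15.1, 19.1 and 18.5 FPKM in CF and 21.4, 21.1 and 10.3 in CM. Its log2 difference was 0.061 as deposited, -0.058 after scaling and -0.27 without MOE-CM3 (unadjusted p = 0.0248 by limma), and MOE-CM3 was the only male pool below the female pools. Runx2 and Sp7, transcription factors of the osteoblast lineage, differed by 0.084 and 0.20, and Runx2 by -0.0083 after scaling.

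The bone-resorbing osteoclasts gave values on the same side. Their 5 tested markers had a median of 0.29 as deposited, 0.17 after scaling and 0.14 when scaled without MOE-CM3. Mmp9, a matrix protease, had 6.05, 5.97 and 6.43 FPKM in CF and 4.68, 4.63 and 4.10 in CM. Its log2 difference was 0.42 (unadjusted p = 0.0295 by limma). After scaling its groups overlapped, with a log2 difference of 0.31 (unadjusted p = 0.0551 by limma). Acp5, the tartrate-resistant acid phosphatase, had 27.6, 31.7 and 28.4 FPKM in CF and 24.5, 25.1 and 15.5 in CM. Ctsk, the collagen-degrading cathepsin K, overlapped, at 48.7 to 53.3 and 28.7 to 51.1 FPKM. For SF minus SM, the 5 osteoclast markers had a median of 0.15 as deposited, with 4 higher and 1 lower. The lower one was Mmp9, at -0.15.

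In the sex-separated mice, the osteoblast and osteocyte list had a median of 0.06 for SF minus SM, with none of its genes at an unadjusted p under 0.05. Bglap differed by -0.062 and Dmp1 by -0.21 there, and their interactions had unadjusted p-values of 0.037 and 0.0111, which did not pass after adjustment. The scaled levels of the list, as the median log2 ratio of its genes to their average, were 0.21, 0.04 and 0.16 in CF and -0.23, -0.19 and -0.01 in CM. A dissection can also carry cartilage and blood. Cartilage genes were lowest in CF1 (-0.37) and highest in CF3 (0.48). Erythroid genes stood at -0.04, 0.36 and 0.01 in CF, at -0.20 and -0.54 in CM1 and CM2, below all CF libraries, and at 0.84 in MOE-CM3. Neutrophil genes stood at -0.28, 0.25 and 0.19 in CF, at -0.79 and -0.14 in CM1 and CM2 and at 0.68 in MOE-CM3. Without MOE-CM3 the scaled medians of both blood lists, 0.37 for erythroid and 0.55 for neutrophil genes, were thus above the 0.27 of bone genes. The amount of bone in each dissection was not measured, and its part in the difference was not tested.

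**Figure D4:**
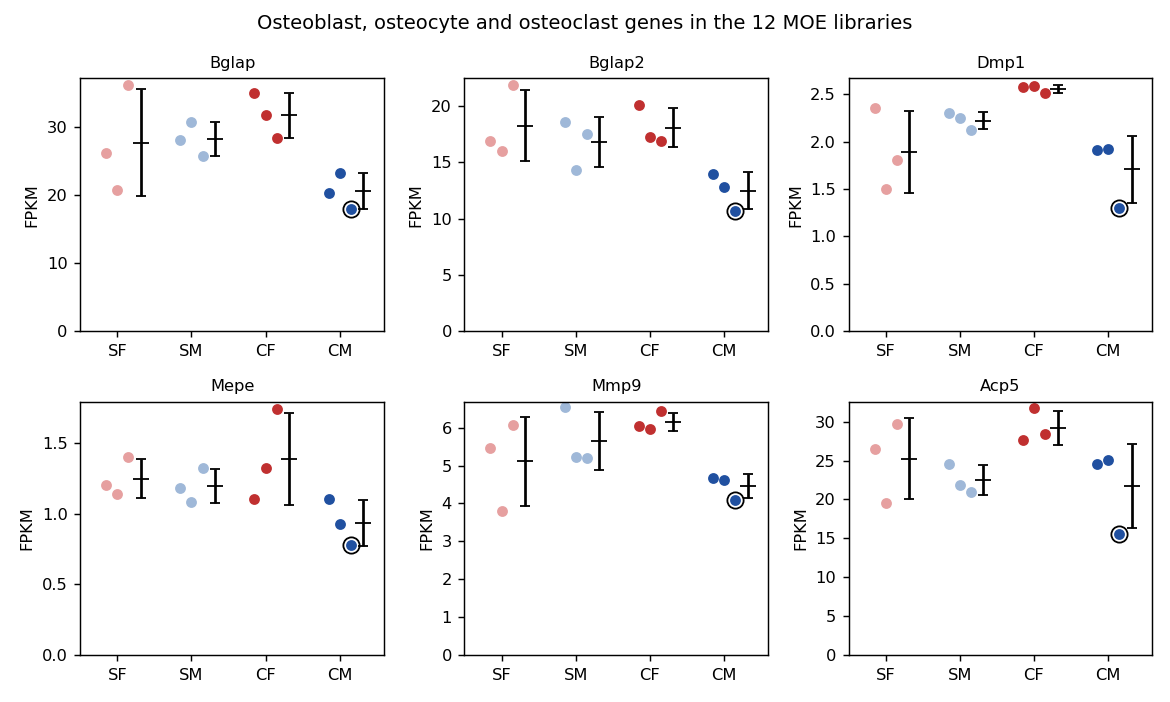
FPKM of 4 osteoblast or osteocyte genes (Bglap, Bglap2, Dmp1 and Mepe) and 2 osteoclast genes (Mmp9 and Acp5) in the 12 MOE libraries, with the mean and SD (n = 3) beside each group and MOE-CM3 ringed. The 3 Bglap values of CF lie at 28.4 to 35.0 and those of CM at 18 to 23.3, while SF and SM overlap at 20.7 to 36.2 and 25.8 to 30.7.

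Canonical histone genes, whose transcripts mostly lack a poly(A) tail and serve DNA replication, had the next highest scaled median over all 6 libraries. Of 53 tested genes, 8 were higher in CF at an unadjusted p under 0.05 and none lower, beside 1.46% and 0.218% of all genes, with a median of 0.37. After scaling there were 12 higher and none lower, beside 2.15% and 1.8% of all autosomal genes, with a median of 0.25, and in 15 all CF libraries were above all CM libraries, beside 4.16% of all genes. When scaled without MOE-CM3 the median was 0.23, with 12 higher and 1 lower, beside 4.17% and 3.57%. Besides H2bc9, H2bc13 had 4.92, 8.26 and 6.54 FPKM in CF and 3.65, 4.30 and 3.50 in CM, and H3c4 had 8.66, 14.0 and 9.78 against 8.33, 7.43 and 3.79. The most abundant members did not share the difference, since H4c4 had 335 to 366 FPKM in CF and 192 to 419 in CM. Histone genes are near-identical copies among which reads can be split. In SF minus SM, the list lay on the other side, with a median of -0.23 and with 8 genes lower and none higher at an unadjusted p under 0.05, beside 3.19% and 0.953% of all autosomal genes. Markers of dividing cells, which include Mki67 and Top2a, had a scaled median of 0.08 over 24 genes, with none at an unadjusted p under 0.05.

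Transcript length moved with these values. The 229 genes shorter than 500 bases had a scaled median of 0.14, and 9.61% of them were higher in CF at an unadjusted p under 0.05, whereas genes of 500 to 1000 bases had a median of 0.015 and longer classes lay between -0.012 and 0.0025. Many histone and ribosomal protein transcripts are short. Genes of the lists were not left out of the length classes, so the 2 readings share genes. The part of length in the differences of the lists was not tested. The 65 ribosomal protein genes had a scaled median of 0.05, with 42 higher and 23 lower in CF, of which 4 and 3 reached an unadjusted p under 0.05, beside 2.15% and 1.8% of all autosomal genes. Rps21 was one of the 4, with 43.6, 60.0 and 38.7 FPKM in CF and 27.3, 36.1 and 20.9 in CM. The 77 genes of oxidative phosphorylation had a scaled median of 0.04, with 44 higher and 33 lower, of which 3 and 0 reached an unadjusted p under 0.05. For 80 small nucleolar and Cajal body RNAs, which guide the modification of other RNAs, the scaled median was 0.14, and 0.43 without MOE-CM3.

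Among response pathways, the 19 tested immediate early genes, which neurons induce when active, had a median of 0.21 as deposited and of 0.12 after scaling. Fos had 2.22, 2.12 and 2.04 FPKM in CF and 1.36, 1.03 and 1.35 in CM, with a log2 difference of 0.59 (unadjusted p = 0.0234 by limma). Nr4a1 had 2.97, 2.18 and 2.77 FPKM in CF and 1.69, 1.11 and 1.88 in CM, and a log2 difference of 0.62. For both genes the groups were separate as deposited and overlapped after scaling. Egr1, another member, differed by 0.093. Of the 19 genes, 2 were higher at an unadjusted p under 0.05 as deposited, beside 1.46% of all genes. After scaling 0 were higher (beside 2.15%), and 5 when scaled without MOE-CM3 (beside 4.17%). None was lower under these settings. For SF minus SM the list lay on the other side, with a median of -0.20, beside -0.02 over all autosomal genes. There 4 of its genes were higher and 15 lower. Genes that OSNs regulate with activity, such as S100a5 and Kirrel2, had a scaled median of -0.04 over 16 genes and none at an unadjusted p under 0.05.

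Interferon-stimulated genes had a scaled median of 0.08 over 23 genes, with 19 higher and 4 lower, of which 3 and 0 reached an unadjusted p under 0.05, beside 2.15% and 1.8% of all genes. Irf7, a transcription factor of the interferon response, had 1.42, 1.40 and 1.42 FPKM in CF and 1.24, 0.721 and 0.614 in CM, and Psmb9, an immunoproteasome subunit, had 3.51, 2.47 and 2.24 against 2.23, 1.84 and 1.32. Of the macrophage markers, Cd68, a lysosomal protein, averaged 1.92 ± 0.0552 FPKM in CF and 1.31 ± 0.408 in CM (SD, n = 3 each), and the list of 10 genes had a scaled median of 0.06. Ddit4, a stress-induced inhibitor of mTOR signalling that glucocorticoids raise, had 6.37, 5.72 and 5.23 FPKM in CF and 4.96, 4.16 and 2.86 in CM, in a list of 13 glucocorticoid and metallothionein genes with a scaled median of 0.00.

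Xenobiotic metabolism enzymes had a scaled median of -0.03 over 73 genes, with 28 higher and 45 lower, of which 1 and 5 reached an unadjusted p under 0.05, beside 2.15% and 1.8% of all genes. The 10 tested sex steroid receptors and steroid enzymes had a scaled median of -0.11, with 2 higher and 8 lower, of which 0 and 1 reached it. Clock genes (18), cholesterol synthesis (18), endoplasmic reticulum stress (21) and heat shock (14) had scaled medians between -0.03 and 0.01, and none of their genes reached an unadjusted p under 0.05 after scaling. At this depth, T and NK cell markers were all below the level filter, and 1 gene each was tested for skeletal muscle and mast cells.

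**Figure D5:**
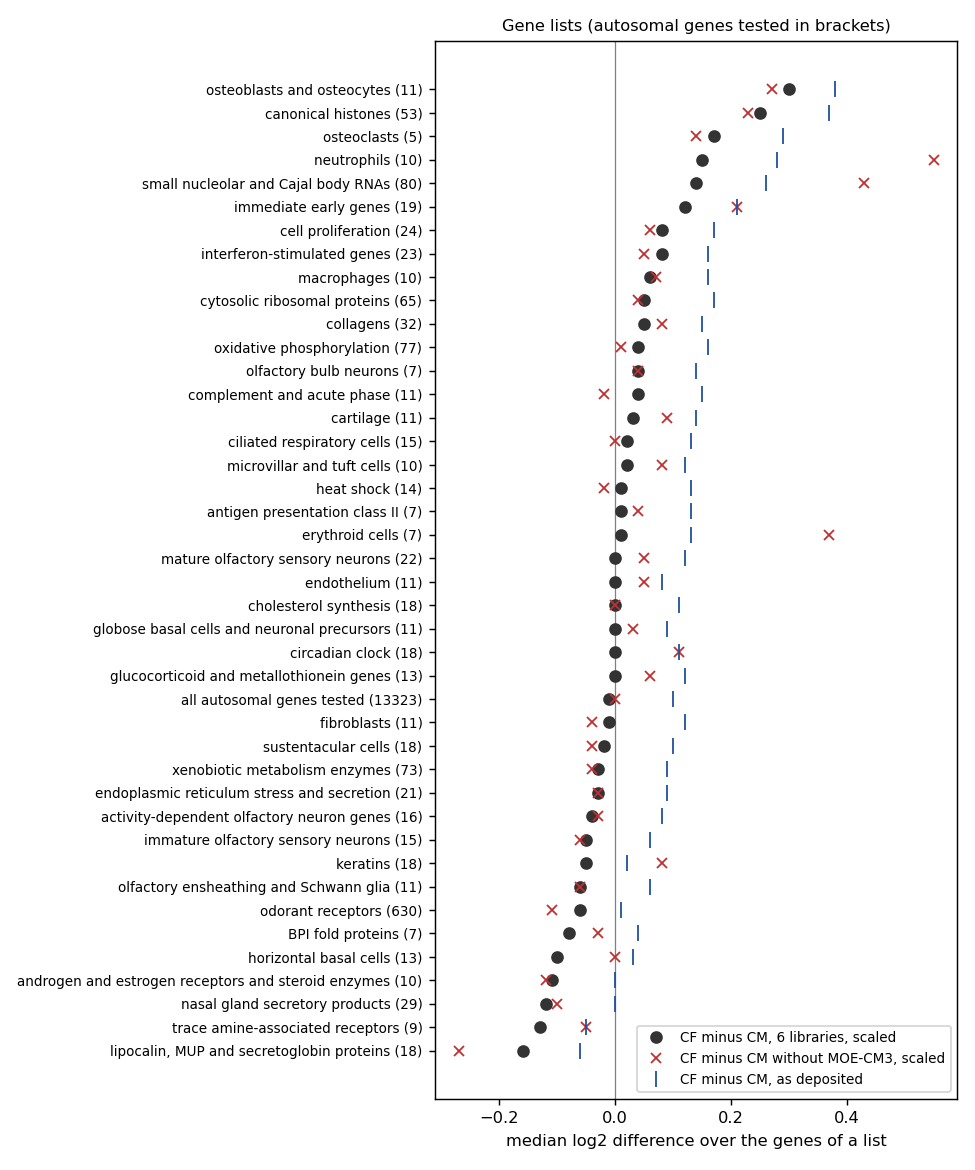
Median log2 difference between CF and CM over the tested autosomal genes of each list with at least 5 such genes, after scaling (circles), after scaling without MOE-CM3 (crosses) and as deposited (ticks). Osteoblast and osteocyte genes lie highest at 0.30 after scaling and mature OSN genes at 0.00. The crosses and circles lie farthest apart for neutrophil genes (0.55 and 0.15) and erythroid genes (0.37 and 0.01).

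On the sex chromosomes, 5 of 434 tested genes were called as deposited (1.15%), which were Xist and the Y-linked genes Ddx3y, Eif2s3y, Kdm5d and Uty. Kdm6a, an X-linked histone demethylase that escapes X inactivation, had 9.23, 9.90 and 8.55 FPKM in CF and 5.56, 5.53 and 3.94 in CM. The groups were separate, and the log2 difference was 0.83 as deposited (SE 0.174, adjusted p = 0.294 by limma). After scaling it was 0.72 and passed the threshold (adjusted p = 0.000667 by limma). Scaled without MOE-CM3 it was 0.79 (adjusted p = 0.00026 by limma).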

How the data were processed

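RNA of the MOE, depleted of ribosomal RNA, was sequenced as pairs of 50 bases. Per the labels, the authors used TopHat2 2.1.0, Cufflinks 2.2.1.0 and Cuffdiff with mm9, and deposited FPKM values per transcript locus with 95% confidence limits. Of 40150 MOE loci, 99.7% matched a symbol through RefSeq accessions. FPKM was summed by gene, 5 genes with an entry not marked OK were left out, and fragments were estimated from the confidence limits. The limits do not cover the spread between pools, and the estimates are not read counts. Scgb1c1, at 4415 FPKM or more in CF and CM, had a lowest estimate of 1993, and Omp, at 638 or more, one of 14742.

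The 12 MOE libraries in 4 groups shared 1 limma fit (version 3.58.1, under R 4.3.3, moderated with an intensity trend) of log2(FPKM + 0.5), with Benjamini-Hochberg adjustment of p over the 13757 genes that averaged 0.5 FPKM or more. VNO and olfactory bulb were fitted likewise. Scripts were tested on simulated data. The comparison and the 48 gene lists were chosen with earlier results of these data known, and lists were given no p.

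Named genes were those called, the 10 with the smallest p in each direction whose CF and CM libraries did not overlap with at least 10 estimated fragments in each, list members with the smallest p or the highest level, and preset genes. The other list members and receptors given in the text, and those called without MOE-CM3, were chosen after their values were seen. Alternatives were pseudocounts of 0.1 and 1, other level filters, upper quartile, median-of-ratios and quantile scaling, library weights, fits on 6 libraries, the replicate number as a block, single loci, genes listed at 0 left out, and each of the 6 libraries left out. Combinations of scaling with 6 libraries or without MOE-CM3 were added after seeing the data. Python 3.11.15, pandas 2.3.3, numpy 2.4.6 and matplotlib 3.10.9 were used for tables and figures.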

Additional observations from a re-analysis of the deposited data

Results flagged for a closer look

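For 5 autosomal genes (0.0375% of those tested), the difference between females and males itself differed between the housings by the interaction term of limma with Benjamini-Hochberg adjustment. The values below are the CF minus CM difference less the SF minus SM difference on the log2 scale, and since 4 of the genes were listed at 0 in whole groups, they depend on the pseudocount. An exact 0 in these files can be a failed estimate.

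Bbof1, a basal body protein, had an interaction of -2.87 (adjusted p = 1.6e-05). It was listed at 0 in all 3 SM libraries and stood at 2.14 to 3.72 FPKM in the other groups. Rbm14, an RNA-binding protein, had an interaction of 4.98 (adjusted p = 0.00571). It was listed at 0 in the 3 SF libraries and in CM1 and CM2, and had 2.76 to 4.15 FPKM elsewhere. Mir682 had an interaction of 12.75 (adjusted p = 0.00571), with 3 SF libraries and CM2 at 0 and 57.9 to 385 FPKM in the other libraries. Oxsm, a mitochondrial fatty acid synthase, had an interaction of 3.01 (adjusted p = 0.0223). It had 1.45, 1.27 and 1.14 FPKM in CF and was listed at 0 in all CM libraries, all SF libraries and SM1.

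The histone gene H2ac7 had an interaction of 2.70 (adjusted p = 0.0488) and was above 0 in all 12 libraries. Its FPKM was 5.69, 3.76 and 4.20 in CF, 0.994, 3.62 and 2.38 in CM, 0.573, 0.672 and 1.54 in SF, and 5.48, 4.68 and 2.79 in SM. As few as 3.84 estimated fragments stood behind a CF or CM value.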

How the results depend on the processing

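2310057J18Rik was called under every setting fitted by gene, with a log2 difference of -2.90 to -2.46 and an adjusted p of at most 0.0082 by limma (6 libraries only). The 1 autosomal call became 2 (1 higher) with 6 libraries only, also when scaled, 3 (1 higher, 2 lower) without genes listed at 0, 6 (3 and 3) with library weights, and 7 (3 and 4) over single loci. Leaving out 1 library gave 1 to 4 calls, 0 to 3 of them higher. The 4 were those without MOE-CM3, also when scaled, where Rbm14, Snord34 and Agbl5, which CM1 and CM2 list at 0, joined 2310057J18Rik. Library weights gave MOE-CM3 a weight of 0.0503 and called B4galnt2 (-0.98, adjusted p = 0.0155).

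CF and CM libraries of the same replicate number had r of deviations of -0.045, 0.23 and 0.046, beside -0.24 to 0.18 for the other pairs. With 3 libraries per group, these values cannot decide whether the numbers pair the libraries. The replicate block gave 2 calls, 1 of them higher in CF, and 6 interaction calls. The 5 interaction calls became 3 with a pseudocount of 0.1, 2 without a level filter and under upper quartile, median-of-ratios or quantile scaling, 19 without genes listed at 0, 2335 with library weights, 3 to 8 when 1 library was left out, and 8 when scaled without MOE-CM3. The cause was not tested.

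Olfr1295, at 0.014 as deposited, turned to -0.079, -0.086 and -0.077 under these 3 scalings, -0.086 scaled with 6 libraries, -0.36 with library weights, -0.24 scaled without MOE-CM3, and ran from -0.34 to 0.20 with 1 library left out, below 0 without CF1 (-0.064), CF2 (-0.068) or CM3 (-0.34). Of 836 list medians under the settings, 12 moved by more than the spread between libraries of a group. That spread was taken from deposited values and holds the shift of MOE-CM3, so smaller moves were not counted, even across 0. The median of mature OSN markers, for example, went from 0.12 to -0.06 without MOE-CM3. MOE-CM3 had the fewest estimated fragments of the MOE libraries and the fewest loci above 0 FPKM (20795). The FPKM that 3 estimated fragments stand for had a median of 0.0776 there and of 0.0701 to 0.0837 in the other 5 libraries of CF and CM. The paper gives MOE-CM3 the most input read pairs of the MOE libraries and the lowest share of concordantly aligned pairs. Its aligned pairs there outnumber those of CF1, CF2, CF3 and CM2.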

Other observations

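MOE-CM3 also stood apart in single genes that averaged 5 FPKM or more. Gfy, a protein of the Golgi of olfactory neurons, had 50.8 FPKM there and 10.7 to 25.3 in the other 5 libraries of CF and CM. Snord33 was listed at 6737 FPKM in MOE-CM3 and at 0 in the other 11 MOE libraries. Rpl35a had 2.24 FPKM in MOE-CM3 and 6.00 to 14.5 in the other 5, and Xrcc4, a DNA repair protein, had 4.06 and 8.95 to 11.5.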
